A study of Mus musculus with 10 samples.

Results

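The 50 genes described here encode the machinery that carries a cell through mitosis: the entry cyclins and kinases, the spindle checkpoint, the kinetochore, mitotic motor proteins and the parts that split the daughter cells. They were chosen by symbol, and all 50 were in the RNA table of 16338 genes and averaged 10 or more normalized counts over its 4 libraries, as 14324 genes did. Of 6995 peaks in the chromatin table, 12 carry the name of 1 of these genes. The tissue was the cortical midline of C57/Bl6 mouse embryos on embryonic day 14.5. For RNA-seq, 2 control libraries were made from embryos labelled Rcor2f/f, with the Rcor2 gene floxed, and 2 conditional knockout (cKO) libraries from embryos labelled Rcor2f/f/EMX1-iCRE. The floxed alleles are thus common to both genotypes, and they differ by the Cre transgene. Emx1 drives Cre in progenitors of the dorsal telencephalon and their descendants, so cells of other origin in the dissected tissue, such as vessels, meninges and interneurons that migrate in, keep an intact gene. For chromatin immunoprecipitation (ChIP-seq), wild-type midline gave 2 libraries with an antibody to Rcor2, 2 with rabbit IgG and 2 of input chromatin. Nothing in the labels says whether libraries came from separate or pooled embryos, so each p-value measures only the spread between these libraries.

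Mitosis begins when cyclin A and cyclin B activate the kinase Cdk1, which Cdc25 phosphatases release from inhibition. Chromosomes then attach through their kinetochores to the spindle, a checkpoint holds anaphase back until every kinetochore is attached, and motor proteins and the central spindle separate the daughters. Transcripts of this machinery peak in the G2 and M phases, under the control of the MuvB complex with B-Myb and FoxM1, and in the embryonic cortex they mark radial glia and intermediate progenitors. Rcor2 is a CoREST family scaffold that links the demethylase Lsd1 and histone deacetylases to chromatin.

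Promoters of such genes are known for a CCAAT box, bound by NF-Y, and downstream of it a cell cycle genes homology region (CHR), bound by MuvB. RefSeq promoters (GRCm38.p6, the assembly of mm10) of 300 bases, from 250 before to 50 after a listed start, were found for 42 of the 50 genes, 47 promoters in all. The letters searched on both strands were TTTGAA or TTCGAA for the CHR and CCAAT for the box, which can share at most a single end letter. A CHR match lay in 34 of the 47 promoters (72.3%), against 19.2% of all 32851 promoters and 13.5% of the 13962 promoters of tested genes. A CCAAT match lay in 36 (76.6%), against 37.4% of all promoters. Both stood in 29 (61.7%, against 7.52%), and in 19 (40.4%, against 1.99%) they began 20 to 45 bases apart, a spacing chosen after the data were seen. Bub3, Ect2 and Prc1 each have 2 listed starts with overlapping windows, so their matches are counted in both. By gene, 31 of the 42 held a CHR match and 16 a spaced pair. For E2F, searched as TTCCCGC or TTGGCGC or TTCGCGC or TTGCCGC, 11 promoters matched (23.4%, against 9.57% of all promoters and 16.2% of those of tested genes). Of these, TTGGCGC can overlap the box on the opposite strand, ATTGG. These matches are descriptions of letters and not binding sites. The 6 stretches below are the 150 bases before the RefSeq start, 5′ to 3′ on the gene's strand, with CCAAT and CHR matches in capitals; none of the 6 holds an E2F match there. The first 3 are shown because the authors listed a promoter peak for the gene near that start. The other 3 were chosen after the values were seen, as the genes of smallest adjusted p in the RNA comparison that hold a spaced pair before the start.
Prc1 (chr7:80294301-80294450, plus strand): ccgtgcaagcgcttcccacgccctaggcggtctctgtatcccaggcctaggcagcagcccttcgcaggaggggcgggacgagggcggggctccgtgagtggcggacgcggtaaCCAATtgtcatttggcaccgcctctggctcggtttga
Cenpf (chr1:189688087-189688236, minus strand): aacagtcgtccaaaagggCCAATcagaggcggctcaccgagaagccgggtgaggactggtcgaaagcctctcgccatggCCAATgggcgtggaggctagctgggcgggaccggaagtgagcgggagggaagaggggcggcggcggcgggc
Kif11 (chr19:37376232-37376381, plus strand): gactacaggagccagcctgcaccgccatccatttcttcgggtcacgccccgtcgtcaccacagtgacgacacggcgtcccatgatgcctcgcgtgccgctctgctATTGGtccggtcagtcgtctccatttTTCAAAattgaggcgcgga
Top2a (chr11:99024190-99024339, minus strand): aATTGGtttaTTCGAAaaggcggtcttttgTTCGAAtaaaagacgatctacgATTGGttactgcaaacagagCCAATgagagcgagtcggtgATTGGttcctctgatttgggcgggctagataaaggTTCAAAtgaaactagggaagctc
Cdc20 (chr4:118437344-118437493, minus strand): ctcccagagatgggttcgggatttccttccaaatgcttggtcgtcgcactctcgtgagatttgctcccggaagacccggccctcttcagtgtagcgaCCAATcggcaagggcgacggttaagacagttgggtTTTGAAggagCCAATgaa
Kif22 (chr7:127042421-127042570, minus strand): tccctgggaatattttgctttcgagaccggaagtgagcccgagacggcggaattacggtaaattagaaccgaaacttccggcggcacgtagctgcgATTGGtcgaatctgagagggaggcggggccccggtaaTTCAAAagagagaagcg

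In Kif11 the box begins 45 bases before the start and the CHR 19 bases before it. Cdc20 holds the pair at 53 and 18 bases and Kif22 at 54 and 17 bases. Top2a holds 4 boxes and 3 CHR matches, the nearest to the start 58 and 23 bases before it. In Prc1 a CHR match begins 5 bases before the start used for the printed stretch and runs past it, so its letters are not capitalised. From the later listed Prc1 start, this match begins 30 bases and the box 62 bases before it. CHR and CCAAT matches differed in where most of them began, but their positions overlapped. Of the CHR matches, 23.4% began within the 100 bases before the start. Of 47 CHR matches in these promoters, 63.8% began no more than 25 bases before the start or after it, against 18% of all CHR matches in all promoters, and of 71 CCAAT matches 67.6% began within the 100 bases before the start, against 43.6%. Genes with a CHR match and those without had median log2 changes in the cKO of 0.25 (31 genes) and 0.23 (11 genes).

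**Figure D1:**
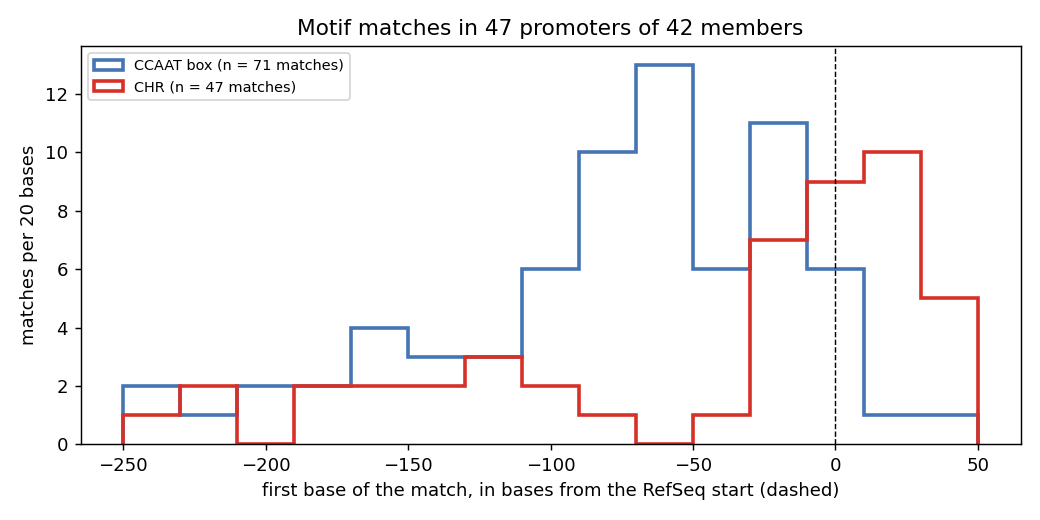
Positions of CCAAT (71) and CHR (47) matches in the 47 promoters of 42 mitosis genes; the x axis gives the first base of a match in bases from the RefSeq start and the y axis the matches per 20 bases. CCAAT matches crowd before the start (median position -65) and CHR matches around it (median position -5).

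The RNA libraries held 27674987 to 30270598 recovered reads. Rcor2 itself had 7901 and 7257 normalized counts in the controls, against 6363 and 6840 in both cKO libraries (log2 -0.20, limma adjusted p 0.0541); the authors' deposited table gives a log2 change of -0.19 with an adjusted p of 0.0444. A count over the whole gene includes exons that may not be floxed, so it checks the labels only weakly. The library cKO 1 stood apart in markers of mesenchyme and meninges. Their 5 summed levels were 1302 and 1124 in the controls, 8192 in cKO 1 and 1695 in cKO 2, with 2 of 5 markers called higher, Col1a1 and Dcn. In cKO 2, Col1a1 had 611 counts against 355 and 258 in the controls, and Col1a2 (378) and Dcn (411) also lay above both controls. Col3a1 (282) lay below both controls and Lum (13.7) between them, so the 5 markers were not all raised in cKO 2. Markers of the cells this tissue should hold were all measured: 8 of radial glia, 4 of intermediate progenitors and 8 of neurons, none at 0 in any library. Call counts of the mitosis genes and of most of the related and marker lists are therefore also given without cKO 1.

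Mitosis genes were higher in the cKO, by a small and similar amount in every role. All 50 had a log2 change above 0, from 0.06 to 0.35 with a median of 0.25 (a 1.19-fold level), where the median of all 14324 genes tested was -0.01 and 47.3% of them lay above 0. At a limma adjusted p under 0.05, 38 rose, 0 fell and 12 did not pass; of all genes tested, 6.16% were called higher and 8.29% lower. The edgeR count test on recovered reads called 33 higher and 0 lower, against 5.69% higher of all genes. The spread among the genes was narrow, with quartiles of 0.22 and 0.29, where those of all genes were -0.14 and 0.12. A change of at least 0.25 was seen in 13.7% of all genes tested, so its size alone was not rare.

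In 49 of 50 genes both cKO libraries lay above both controls, as in 27.7% of all genes tested; Bub3 was the exception. Library cKO 1 was above cKO 2 in 45 genes and control 2 above control 1 in 40, against 48% and 52.4% of all genes tested. The libraries of each genotype thus also differed from each other in a shared direction. The median difference was 0.08 between the cKO libraries and 0.04 between the controls. Set against the controls' mean, the median was 0.30 in cKO 1 and 0.20 in cKO 2. In cKO 2 all 50 genes were above control 1 and all 50 above control 2, against 48% and 46.2% of all genes tested. Together the 50 genes took 0.581% and 0.607% of all normalized counts in the controls, 0.743% in cKO 1 and 0.699% in cKO 2. In bulk tissue, more cells in mitosis, more dividing cells and more transcript per cell cannot be told apart.

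**Figure D2:**
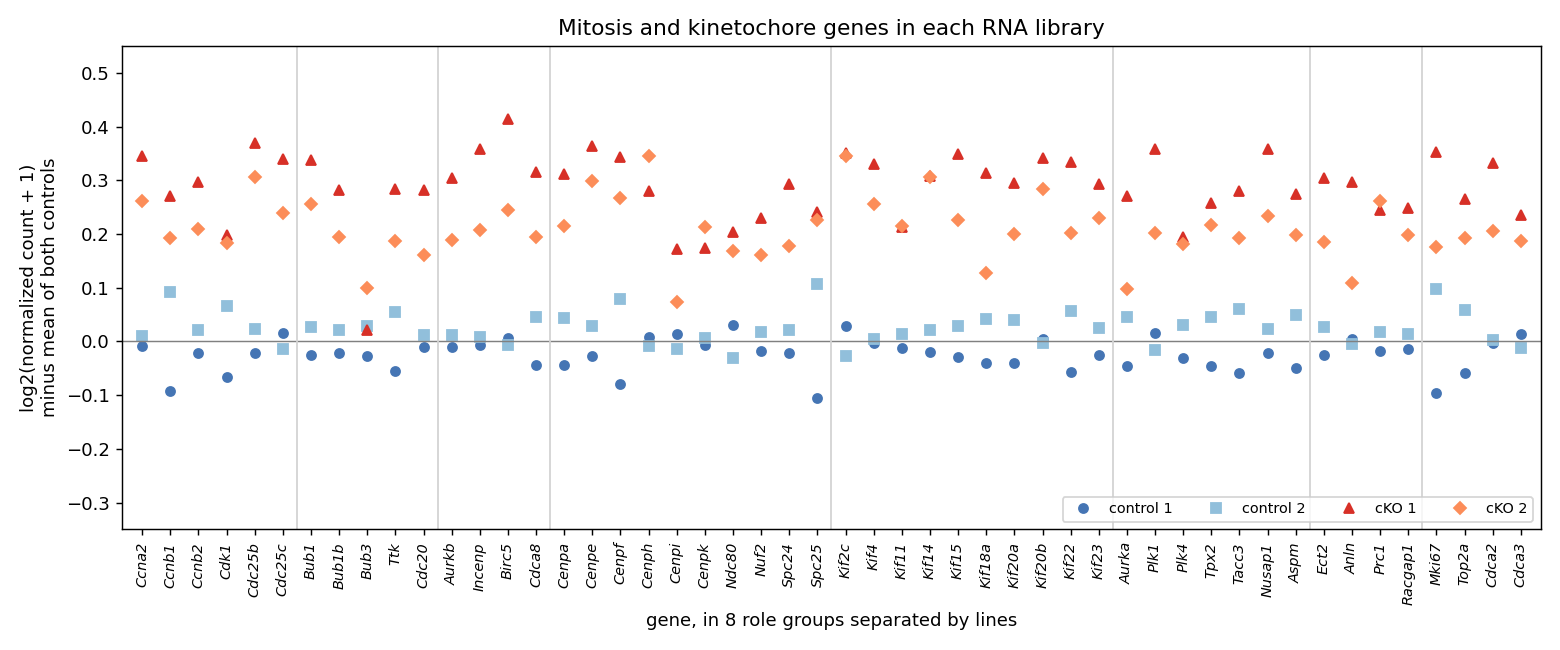
Level of each of the 50 mitosis genes in the 4 RNA libraries, as log2(normalized count + 1) minus the mean of both controls (y axis), with genes on the x axis in 8 role groups. Triangles and diamonds (cKO 1 and cKO 2) stand above circles and squares (controls 1 and 2) in 49 genes and mix with them in Bub3.

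The number of calls depended on which library was left out, because 2 libraries a group leave little to estimate the spread from. Without control 1 and without control 2, 0 mitosis genes were called (0.44% and 0.405% of all genes called higher), with smallest limma adjusted p-values of 0.0533 and 0.0511 and unadjusted p under 0.05 in 36 and 45 genes. Without cKO 1, 21 rose (3.83% of all genes), and without cKO 2, 44 rose (10.7%). The median stayed between 0.20 and 0.30 and all 50 changes above 0 in these 4 fits, but a gene whose groups do not overlap cannot change sign when 1 library is left out. Cdc25c, Nuf2, Plk1, Plk4, Top2a and Ttk rose by limma but not by edgeR (adjusted p 0.0502 to 0.0961). Cdk1 was the reverse, called higher by edgeR (adjusted p 0.0346) but not by limma.

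The genes of mitotic entry rose in 4 of 6 cases (median 0.27), and in 2 without cKO 1, Ccna2 and Cdc25b. Ccna2, the cyclin that acts in S phase and at the start of mitosis, had 6864 and 6954 normalized counts in the controls, against 8772 and 8282 in both cKO libraries. The cKO libraries lay well above controls that nearly coincided (means 6909 ± 63.6 and 8527 ± 346, SD, n = 2 per genotype), a log2 rise of 0.30 (SE 0.046, limma adjusted p 0.00749). Cdc25b, a phosphatase that activates Cdk1, had 1139 and 1175 in the controls, against 1494 and 1431 in both cKO libraries (log2 0.34, SE 0.058, limma adjusted p 0.00981), the largest change of this role. Ccnb2, a B-type cyclin, had 1580 and 1627 in the controls, against 1969 and 1855 in both cKO libraries (log2 0.25, limma adjusted p 0.0219). Cdc25c, the phosphatase at mitotic onset, rose too (log2 0.29). Cdk1, the mitotic kinase, and Ccnb1, its main cyclin, had log2 changes of 0.19 and 0.23 and did not pass by limma (adjusted p 0.0557 and 0.0594). In both, control 2 lay above control 1, by 3274 to 2985 counts in Cdk1 and 2146 to 1887 in Ccnb1. Both were called higher in the authors' deposited table (adjusted p 0.0456 for Ccnb1).

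Of the spindle checkpoint genes and the anaphase activator Cdc20, 4 of 5 rose (median 0.24), 2 of them without cKO 1. Bub1, a checkpoint kinase at the kinetochore, had 2390 and 2478 normalized counts in the controls, against 3077 and 2905 in both cKO libraries (log2 0.30, SE 0.052, limma adjusted p 0.0102). Bub1b, which encodes the checkpoint protein BubR1, had 4634 and 4778 in the controls, against 5721 and 5385 in both cKO libraries (log2 0.24, limma adjusted p 0.0169). Cdc20, which activates the anaphase-promoting complex and whose promoter is printed above, had 2884 and 2929 in the controls, against 3533 and 3250 in both cKO libraries (log2 0.22, limma adjusted p 0.0305). In all 3 the genotypes were separate. Ttk, the checkpoint kinase Mps1, passed narrowly (log2 0.24, limma adjusted p 0.0494). Bub3, singled out here after its values were seen, had 4070 and 4231 in the controls, against 4209 and 4447 in both cKO libraries. Its libraries overlapped and its log2 change was 0.06 (SE 0.049, limma adjusted p 0.458), the smallest of the 50.

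All 4 genes of the chromosomal passenger complex, which corrects faulty attachments and later directs cleavage, rose (median 0.27). Without cKO 1, 1 of the 4 was called, since Birc5 (limma adjusted p 0.0507), Aurkb (0.0764) and Cdca8 (0.087) lost their call. Incenp, its scaffold, had 2338 and 2362 normalized counts in the controls, against 3013 and 2714 in both cKO libraries (log2 0.28, SE 0.059, limma adjusted p 0.0186). Birc5, which encodes survivin, had 1042 and 1032 in the controls, against 1382 and 1229 in both cKO libraries (log2 0.33, SE 0.071, limma adjusted p 0.0198). In both, the controls nearly coincided while cKO 1 stood well above cKO 2. Aurkb, the kinase of the complex, had 1766 and 1793 in the controls, against 2199 and 2029 in both cKO libraries (log2 0.25, limma adjusted p 0.026). Cdca8, which encodes borealin, rose by 0.25 on the log2 scale.

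Centromere and kinetochore genes passed less evenly: 5 of 10 rose (2 without cKO 1) and 5 did not pass (median 0.23), with both cKO libraries above both controls in all 10. Cenpe, a kinetochore motor, had 4219 and 4386 normalized counts in the controls, against 5532 and 5289 in both cKO libraries (log2 0.33, SE 0.047, limma adjusted p 0.00668). This was the smallest adjusted p of the 50. Cenpf, a large protein of the outer kinetochore, had 9489 and 10591 in the controls, against 12718 and 12066 in both cKO libraries (log2 0.31, SE 0.060, limma adjusted p 0.015). Cenpa, the histone H3 variant that marks centromeres, had 1393 and 1479 in the controls, against 1781 and 1665 in both cKO libraries (log2 0.26, limma adjusted p 0.0263). Cenph, of the inner kinetochore, rose by 0.31 and Nuf2, of the Ndc80 complex that binds microtubules, by 0.20. The other subunits of that complex did not pass: Ndc80 had a log2 change of 0.19, Spc24 of 0.24 and Spc25 of 0.23. Spc24, which also has a peak, had 667 and 688 counts in the controls, against 830 and 766 in both cKO libraries (SE 0.074, limma adjusted p 0.0698). Cenpi and Cenpk, of the inner kinetochore, had log2 changes of 0.12 and 0.19 and did not pass. The 2 genes with the lowest mean counts, Cenph and Cenpk (421 and 466), also had the largest standard errors, 0.086 and 0.082.

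Of 10 mitotic kinesins, 9 rose (median 0.28), and 8 without cKO 1. Kif2c, a microtubule depolymerase at centromeres, had 1937 and 1864 normalized counts in the controls, against 2423 and 2413 in both cKO libraries (log2 0.35, SE 0.050, limma adjusted p 0.0067), the largest change of the 50. Kif20b, a motor of cytokinesis, had 1812 and 1802 in the controls, against 2290 and 2199 in both cKO libraries (log2 0.31, limma adjusted p 0.00857). Kif4, a chromosome-bound motor, had 3023 and 3039 in the controls, against 3810 and 3618 in both cKO libraries (log2 0.29, limma adjusted p 0.00872). Controls of all 3 lay close together and far below the cKO. Kif11, the motor that pushes spindle poles apart, had 7143 and 7272 in the controls, against 8353 and 8368 in both cKO libraries (log2 0.21, SE 0.042, limma adjusted p 0.0146). Kif14, Kif15, Kif20a, Kif22 and Kif23 rose by 0.31, 0.29, 0.25, 0.27 and 0.26 on the log2 scale. Kif18a, which dampens chromosome movement, did not pass (log2 0.22, limma adjusted p 0.0787), with 1859 counts in cKO 1 and 1633 in cKO 2 against 1454 and 1539 in the controls.

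Of 7 genes of spindle assembly and the centrosome, 6 rose (median 0.24), and 3 without cKO 1. Nusap1, which bundles spindle microtubules, had 3243 and 3344 normalized counts in the controls, against 4221 and 3873 in both cKO libraries (log2 0.30, SE 0.055, limma adjusted p 0.012). Tpx2, which activates Aurora A on the spindle, had 5354 and 5698 in the controls, against 6602 and 6416 in both cKO libraries (log2 0.24, limma adjusted p 0.0169). Aspm, a spindle pole protein whose loss causes microcephaly, had 6165 and 6607 in the controls, against 7721 and 7320 in both cKO libraries (log2 0.24, limma adjusted p 0.0217). The genotypes were separate in each. Plk1, a kinase of many mitotic steps, rose by 0.28, Tacc3, a spindle stabiliser, by 0.24 and Plk4, which starts centriole duplication, by 0.19. Aurka, the kinase Aurora A, did not pass (log2 0.18, limma adjusted p 0.118), with cKO 2 at 1735 just above control 2 at 1673.

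Of 4 cytokinesis genes, 3 rose (median 0.23), and 2 without cKO 1. Prc1, which bundles the central spindle and has a promoter peak, had 5028 and 5158 normalized counts in the controls, against 6032 and 6105 in both cKO libraries (log2 0.25, SE 0.043, limma adjusted p 0.00956). Racgap1, of the centralspindlin complex, had 5010 and 5107 in the controls, against 6004 and 5799 in both cKO libraries (log2 0.22, limma adjusted p 0.0156). Ect2, which activates RhoA at the furrow, had 2903 and 3010 in the controls, against 3652 and 3360 in both cKO libraries (log2 0.24, limma adjusted p 0.0235). Again no control reached a cKO library. Anln, which encodes the furrow protein anillin, did not pass (log2 0.20, limma adjusted p 0.0805).

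Among the remaining 4 genes 3 rose (median 0.25), and 1, Cdca2, without cKO 1. Cdca2, a phosphatase targeting protein of anaphase chromosomes, had 2018 and 2027 normalized counts in the controls, against 2547 and 2332 in both cKO libraries (log2 0.27, SE 0.057, limma adjusted p 0.0192). Cdca3 had 2510 and 2465 in the controls, against 2930 and 2831 in both cKO libraries (log2 0.21, limma adjusted p 0.0241). Top2a, the topoisomerase that untangles sister chromatids, had 23974 and 25992 in the controls, against 30008 and 28530 in both cKO libraries (log2 0.23, limma adjusted p 0.0305). Mki67, the proliferation marker that coats mitotic chromosomes, did not pass despite a change of similar size (log2 0.26, SE 0.078, limma adjusted p 0.0579). Its libraries varied more within each genotype, with 21081 and 24104 in the controls, against 28779 and 25463 in both cKO libraries.

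**Figure D3:**
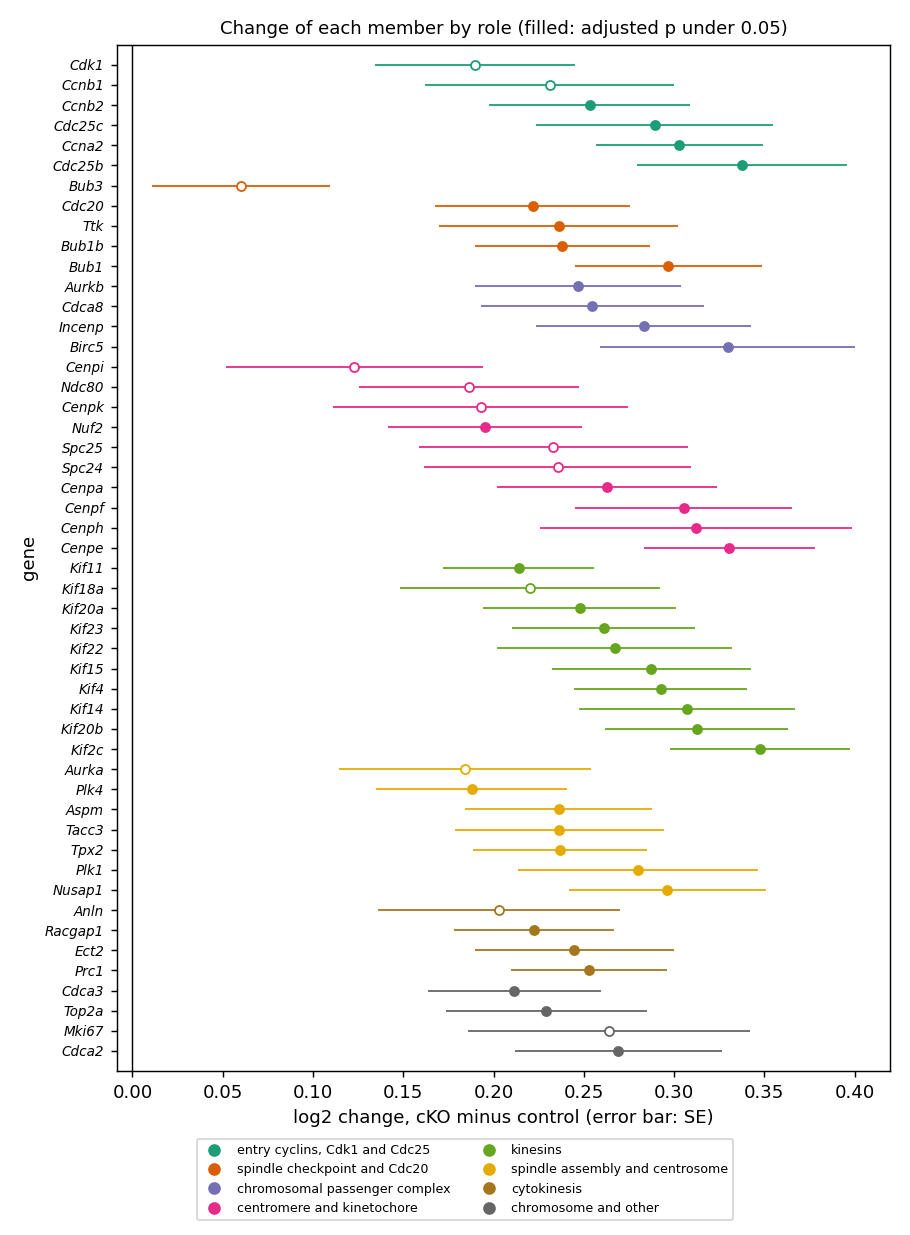
Log2 change of each mitosis gene (cKO minus control, x axis, error bar SE) by role, with filled points for the 38 genes at a limma adjusted p under 0.05 and open points for the 12 that did not pass. All points lie between 0.06 and 0.35, and the roles overlap.

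Related genes outside the 50 were read from lists that were chosen with earlier results of these data known. Beside their limma counts, given here and below, 6.16% of all genes tested were called higher and 8.29% lower. Of 26 measured further kinetochore and centromere genes, 5 rose and 0 fell (median 0.15), with the largest rise in Hjurp, the chaperone that loads Cenpa (log2 0.42, limma adjusted p 0.00791). Kntc1, Cenpu and Ska3 rose by 0.38, 0.35 and 0.33. Of 27 further spindle and cytokinesis genes, 12 rose and 0 fell (median 0.24), with the smallest limma adjusted p in Nde1, Melk, Dlgap5 and Cit (log2 0.31, 0.33, 0.30 and 0.43). Of 8 condensin subunits, 4 rose, Ncaph, Ncapg, Smc2 and Ncapg2 (median of all 8, 0.18). Genes of the checkpoint, cohesion and anaphase list, much of it anaphase-promoting complex subunits that are not confined to mitotic cells, had a median of 0.04, with 3 of 23 higher and 1 lower. Espl1 (separase), Sgol2a (shugoshin 2) and Fbxo5 (an inhibitor of the anaphase-promoting complex) rose by 0.27, 0.24 and 0.24. Without cKO 1 the higher counts of these lists were 3 kinetochore, 8 spindle and cytokinesis, 2 condensin and 0 checkpoint and anaphase genes. Without either control all were 0.

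The gene that fell was Pttg1, which encodes securin, the inhibitor that separase is freed from at anaphase. It had 622 and 672 normalized counts in the controls, against 252 and 253 in both cKO libraries (log2 -1.36, SE 0.090, limma adjusted p 0.00213). The libraries of each genotype nearly coincided, and its change ran against that of its partner Espl1 and of all 50 mitosis genes. Of 14 genes of the MuvB, B-Myb, FoxM1 and pocket protein group, 3 rose and 1 fell (median 0.02). Those that rose were Mybl2, which encodes B-Myb (502 and 499 counts in the controls, 792 and 658 in the cKO; log2 0.53, limma adjusted p 0.0126), Foxm1 (log2 0.36) and the pocket protein gene Rbl1 (log2 0.32). Nfya, a subunit of NF-Y, fell (2523 and 2594 in the controls, 2162 and 2060 in the cKO; log2 -0.28, limma adjusted p 0.0121). Pttg1 kept its call whichever library was left out (largest limma adjusted p 0.0231, without control 2), while Mybl2 lost its call without control 1 (0.0852) and without control 2 (0.0847), and Nfya likewise (0.0845 and 0.109). Rbl1 lost its call without either control too (0.0943 and 0.0703), and Foxm1 without either control (0.13 and 0.188), without cKO 1 (0.062) and by edgeR (0.0514). DNA replication genes had a median close to that of the mitosis genes, 0.23, with 22 of 37 higher and 0 lower; whether the lists differ was not tested. Their calls fell to 16 without cKO 1 and to 1 without either control, Rrm2 without control 1 and Mcm6 without control 2.

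Markers of cell types moved in the same libraries, in which 6.16% of all genes tested were called higher and 8.29% lower by limma. Neuron markers fell in 7 of 8 cases (median -0.41), with summed levels of 180919 and 182155 in the controls against 129658 and 141585 in the cKO. Radial glia markers rose in 4 of 8, Sox2, Hes5, Hes1 and Pax6 (median 0.18, summed 93439 and 91667 against 101706 and 100344). Vim, Nes and Fabp7 had log2 changes of 0.16, 0.09 and 0.07 and did not pass. Slc1a3 went the other way without passing (6754 and 6580 against 6432 and 6353, log2 -0.06). Intermediate progenitor markers rose in 2 of 4, Neurog2 and Btg2 (summed 25190 and 25162 against 27827 and 27613). Interneuron markers fell in 3 of 5 (summed 1819 and 1942 against 1158 and 1204). Hem and choroid plexus markers rose in 2 of 4, Folr1 and Wnt8b (summed 1754 and 1719 against 2116 and 2269, mostly Wnt8b and Rspo2). Ttr, of the choroid plexus, went the other way without passing (19.5 and 14.1 against 9.25 and 5.87, log2 -1.07). Endothelial, microglial and Cajal-Retzius markers had no calls among 4, 4 and 3 genes. Their summed levels were 3181 and 3183 against 3087 and 2982, 1215 and 1134 against 1042 and 1072, and 49000 and 47634 against 40000 and 44579. The Cajal-Retzius sum was mostly Reln (log2 -0.21), while Trp73 and Lhx1 had log2 changes of 0.17 and 0.44. Of 2 measured erythroid markers, Alas2 fell (summed 751 and 938 against 290 and 428). No marker in these lists was at 0 in any library. Without cKO 1, 7 neuron, 4 interneuron and 1 erythroid markers were called lower and 2 radial glia, 1 intermediate progenitor, 2 hem and choroid plexus and 1 mesenchymal markers higher. Without control 1, 3 neuron, 1 interneuron and 1 erythroid markers were called lower, without control 2 these were 2, 1 and 0, and no marker was called higher in either case. The part of cell composition in the rise of the mitosis genes was not tested.

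**Figure D4:**
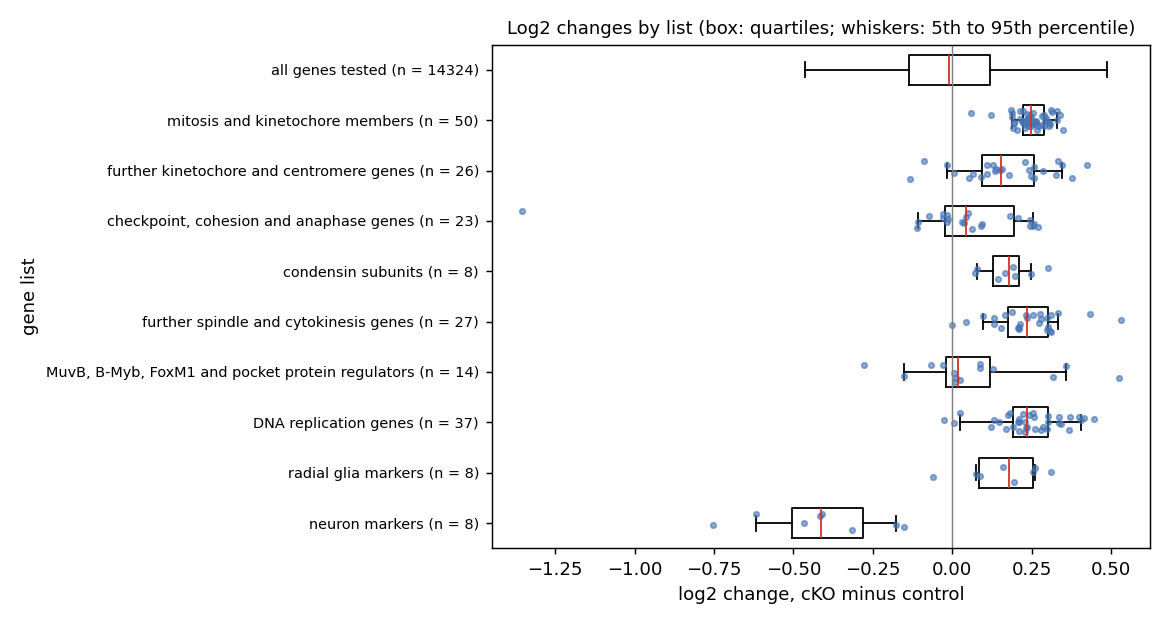
Log2 changes (cKO minus control, x axis) in all genes tested, the 50 mitosis genes, 6 related lists and 2 marker lists; each point is a gene, boxes show quartiles, whiskers the 5th to 95th percentile, and red lines the medians. Mitosis genes form a narrow group at a median of 0.25, neuron markers lie at -0.41, and Pttg1 at -1.36 is the far point of its list.

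Peaks in the authors' Rcor2 list were named for 6 of the 50 genes, Aurkb, Cenpf, Kif11, Kif2c, Prc1 and Spc24, against 20.9% of all genes tested. Promoter-class peaks were named for 5 of the 50, all but Aurkb, against 10.5% of all genes tested. These shares lie near or below the background. Of the 6 genes with a peak 5 rose (median 0.25), and of the 44 without a peak 33 rose (median 0.25). Of all 2993 tested genes with a peak, 318 rose (median 0.01). All 12 peaks had both Rcor2 heights above both IgG heights, as did 98.9% of all peaks, which were called against IgG. In 7 of 12 both Rcor2 heights exceeded both input heights, as in 40.3% of all peaks. Heights are coverage counts with no visible scaling for depth, so a height above or below input also depends on how deeply each library was read. With 2 libraries a group the smallest exact permutation p is 0.333, so single peaks were not tested.

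The highest peak was a distal one named for Kif11 (chr19:37362762-37363769), 13289 bases before the RefSeq start. Its heights were 51 and 67 in the Rcor2 libraries, 9 and 10 in IgG and 23 and 21 in input (log2 2.57 over IgG and 1.40 over input). Both Rcor2 libraries stood above every other library there. A second distal Kif11 peak 12217 bases before the start had heights of 20 and 25 with Rcor2, 6 and 3 with IgG and 10 and 13 in input. The Kif11 promoter peak, with its summit 1316 bases before the start and outside the printed stretch, had 15 and 23 against 7 and 5 and against 11 and 15, so Rcor2 and input overlapped. The Prc1 peak (chr7:80294969-80295228) lay 643 bases after the later of the listed Prc1 starts and also within the span of Rccd1. It had 16 and 25 with Rcor2, 6 and 2 with IgG and 8 and 7 in input (log2 1.39 over input). Among the 5 promoter peaks, this one stood furthest above input. Spc24 had 14 and 29 with Rcor2, 4 and 4 with IgG and 12 and 13 in input, with its summit 589 bases outside the gene's span. The Cenpf peak, 356 bases before the start, had 13 and 17 with Rcor2, 2 and 4 with IgG and 17 and 13 in input, so it showed no height over input (log2 0.00). Kif2c had a promoter peak 327 bases outside its span (15 and 19, 6 and 4, 13 and 10 in Rcor2, IgG and input) and a distal one (13 and 16, 0 and 2, 11 and 12). Both lay only slightly above input (log2 0.54 and 0.32).

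The 4 peaks named for Aurkb lay 5119 to 8417 bases outside the gene's RefSeq span, among tRNA genes. The summit of each was 20 to 131 bases from the nearest tRNA gene, n-TIaat5, n-TSaga4, n-TTagt8 and n-TPcgg3 in order. Of all 6995 peaks, 2.29% had a tRNA gene within 200 bases of the summit. The widest of the 4 (chr11:69040267-69041939) had a fold enrichment over IgG of 10.3 in the authors' list, where the median of all peaks was 4. Its heights were 27 and 48 with Rcor2, 7 and 12 with IgG and 28 and 22 in input, so Rcor2 and input overlapped. In 1 of the other 3, both Rcor2 heights (21 and 21) exceeded input (12 and 10).

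**Figure D5:**
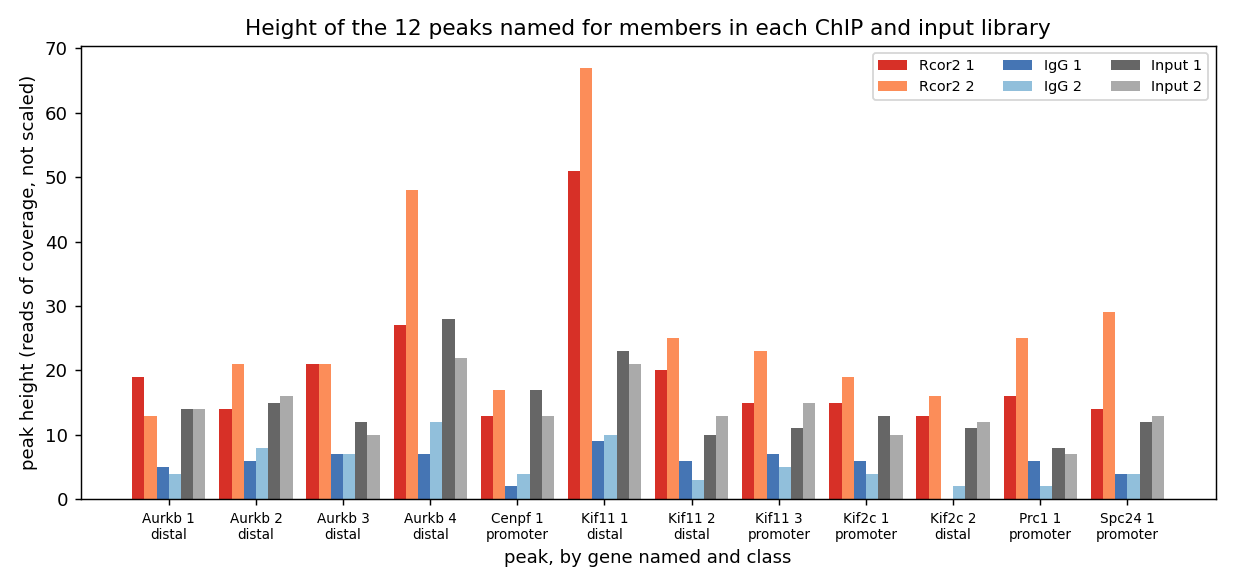
Height in reads of coverage (y axis, from 0, not scaled for depth) of the 12 peaks named for mitosis genes, with 1 bar for each Rcor2, IgG and input library. Rcor2 bars exceed IgG bars at every peak, by most at the first Kif11 peak (51 and 67 against 9 and 10), and are near the input bars at Cenpf (13 and 17 against 17 and 13).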

How the data were processed

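Per the file headers, the authors deposited a signal for each gene, its read count after normalization, in every library, and all values (100%) were whole multiples of 1 step per library (tolerance 1e-04), so whole reads could be recovered. Beside them the authors deposited their own comparison of cKO with control: a mean signal, a log2 fold change and its error, a score and p-values. The deposited peak table gives, per the file headers, a pileup and height (coverage signal), a fold enrichment ratio over IgG and, by place and range, −log10 of p and q. HISAT2 2.1.0, Trim Galore and the mm10 build come from the submitters' processing notes, without a step. For the counter, strand use, normalization and peak caller, nothing was given in the sources used here.

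The main test was limma-trend (limma 3.58.1, R 4.3.3) on log2(normalized count + 1), two-sided, over 14324 genes with a mean of at least 10 (2014 left out), with 2 residual and 6.21 prior degrees of freedom, Benjamini-Hochberg adjustment over all genes and calls at an adjusted p under 0.05. Every fold change is thus a difference of log2(value + 1), which understates change in low genes. edgeR 4.0.16 and DESeq2 1.42.0 ran on recovered reads. The fits were tested on simulated data. The genes and lists were chosen with earlier results of these data known. Values per library are given for the 3 called genes of smallest adjusted p in each of 8 roles and for genes with a peak; others are named with their log2 change (Bub3, Mki67, Kif18a, Aurka, Cdk1 and Ccnb1 were given more after their values were seen), and related lists by up to 4 called genes (an item that the rule names is not reported here). Peaks were matched on the gene column, with joined names split. Height ratios are of group means with 0.5 added. Spans and promoters came from RefSeq; all 50 genes had a span and 42 a promoter. Promoters were printed where a peak summit lay within 2000 bases of a listed start, plus 3 with a motif pair, beyond the planned rule. Figures used Python 3.11.15 and matplotlib 3.10.9.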

Additional observations from a re-analysis of the deposited data

How the results depend on the processing

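The direction of all 50 genes was the same in each of the 14 alternative fits, and 0 of 700 gene values reversed; 417 kept their call, 115 lost it, 16 gained it and 152 had none in either fit. All of these fits reuse the same 4 libraries. Where the groups do not overlap, as in 49 genes, other pseudocounts or filters and leaving 1 library out cannot reverse a gene. With other pseudocounts, filters, scalings and tools, 33 to 40 genes were called higher and 0 lower, and the median lay between 0.25 and 0.27. Calls moved when 1 library was left out: 0 to 44 mitosis genes and 140 to 3453 of all genes were called, with medians of 0.20 to 0.30. The counts were 0 genes without either control and 21 without cKO 1. With a control left out, the lone control is assumed to vary like the cKO libraries, whose spread then sets the error. The replicate numbers of the titles are not stated to pair libraries. Deviations of same-numbered libraries had a correlation of 0.242. It was 0.386 in genes with a mean of at least 50, as all 50 mitosis genes have. A replicate block called 34 mitosis genes and 2076 genes in all, and Cenph, Nuf2, Plk4 and Ttk lost their call. TMM scaling moved the share of calls that are higher from 42.6% to 47.8%. Restricting the CHR search to the 100 bases before the start left 9 promoters instead of 34. That is 19.1% of the mitosis gene promoters, against 6.13% of all promoters and 3.65% of those of tested genes. The restricted search drops both the bases after the start and those further upstream. Taking peaks at or above the median fold enrichment, or promoter peaks alone, left 5 of 6 genes with a peak. The median log2 height at the peaks ranged from 1.76 to 2.30 over IgG and from 0.28 to 0.85 over input when 1 library was left out. No depth is known for the ChIP libraries, which limits what heights can show.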

Other observations

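Loss of function of many mitosis and centrosome genes causes microcephaly in humans, so 17 such genes from the lists above were read together; this grouping was made after the values were seen. Of the 17, 8 rose, 0 fell and 9 did not pass by limma (median 0.24), where 6.16% of all genes tested were called higher and 8.29% lower. By edgeR 7 of the 17 rose, against 5.69% of all genes tested. Of the 8, 6 are among the 50 mitosis genes, and of the 11 others 2 rose, Cit and Ncaph. All 8 lost their call without control 1 and without control 2. Those that rose were Cenpe, Bub1, Ncaph, Cit, Kif14, Kif11, Aspm and Plk4, with log2 changes of 0.33, 0.30, 0.30, 0.43, 0.31, 0.21, 0.24 and 0.19. Cit, a kinase of the midbody, had 1133 and 1271 normalized counts in the controls, against 1737 and 1512 in both cKO libraries (SE 0.084, limma adjusted p 0.0141). Centriole genes were mixed: Stil and Cep152 had log2 changes of 0.30 and 0.21 without passing (limma adjusted p 0.0536 and 0.0627), and Sass6, which builds the centriole cartwheel, had one of -0.00 (limma adjusted p 0.996). Wdr62, Knl1, Cdk5rap2, Ncapd2, Mcph1 and Ncapd3 had log2 changes of 0.31, 0.29, 0.15, 0.14, 0.13 and 0.08 and did not pass.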
